A study of Mus musculus with 51 samples.

Results

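The 3 arrays titled HMGN3 WT were compared with the 3 arrays titled HMGN1 WT, all from primary mouse embryonic fibroblasts (MEFs) in which no Hmgn gene was knocked out. These 6 arrays were chosen by their titles, from 18 arrays of primary MEFs and 51 arrays in the whole series. The series asks how HMGN proteins, small nuclear proteins that bind nucleosomes, shape transcription, and each wild-type (WT) group is named for the knock out it stands beside. Set against each other, the WT groups show how far fibroblast cultures differed with no gene removed. Both groups are labelled strain C57BL/6, grown in DMEM with fetal calf serum, and their genotype labels read HMGN3 WT and HMGN1 WT. The HMGN3 knock out and HMGN1 knock out groups, with 3 arrays each of the same strain and medium, served to read the same difference in other arrays. HMGN5 WT, also 3 arrays of that strain, is given beside them. Every sample carries a protocol of retroviral infection and puromycin selection, which the design text names only for cells that received a construct. The labels do not give the age of the embryos, the passage, the number of embryos pooled, or whether the 3 arrays of a group are separate cultures. The p-values therefore measure the spread between arrays of the same group, which may be technical. That spread was pooled over all 6 groups of primary MEFs.

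Fibroblasts grown without a virus keep a low, continuous expression of interferon-stimulated genes, often called interferon tone. Type I interferon signals through JAK kinases to transcription factors that bind a response element in the promoters of antiviral genes. Fibroblasts also secrete chemokines, the small proteins that attract leukocytes, and embryonic cultures can carry macrophages along with the fibroblasts. Glycolysis and the response to low oxygen share a regulator, the hypoxia-inducible factors, which bind a short core sequence in their target promoters.

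The values are log2 intensities of 1 probe set per gene, and each difference is HMGN3 WT minus HMGN1 WT with its standard error (SE) from limma. The median array intensity was 5.57 to 5.93 in HMGN3 WT and 5.46 to 5.57 in HMGN1 WT on the linear scale. The 3 arrays per group limit the precision. The median SD of a gene was 0.09 in HMGN3 WT and 0.08 in HMGN1 WT. The targeted genes did not differ by the test: Hmgn3 stood at 7.48, 7.59 and 7.57 in HMGN3 WT and 7.39, 7.44 and 7.44 in HMGN1 WT (difference 0.12 ± 0.08, adjusted p = 0.263). Hmgn1 stood at 11.19, 11.17 and 11.17 in HMGN3 WT and 11.19, 11.32 and 11.25 in HMGN1 WT (difference -0.08 ± 0.05, adjusted p = 0.228). The 13 fibroblast markers tested had a mean level of 9.36 to 9.42 in HMGN3 WT and 8.62 to 8.78 in HMGN1 WT. Their median level was 9.88 in both groups, and their differences ran from -0.24 to 3.01 with a median of 0.17. Of these markers 6 were called higher and 1 lower, beside 11.1% and 20.5% of all autosomal genes, and their part in the results below was not tested. Sex-linked RNA separated the groups. The Y-linked Eif2s3y stood at 6.50, 6.33 and 6.28 in HMGN3 WT and at 1.41, 1.31 and 1.41 in HMGN1 WT. Xist, the RNA of the inactive X chromosome, stood at 2.70, 2.73 and 2.65 in HMGN3 WT and at 8.63, 8.61 and 8.56 in HMGN1 WT. Among these 6 arrays the sex-linked RNA and the WT group cannot be told apart, and all results below are on autosomal genes. Among the HMGN1 knock out arrays, replicate 1 had Y-linked RNA without high Xist, and replicate 3 had both. HMGN5 knock out replicate 3 also had both (Xist 7.69, Eif2s3y 5.38), while replicate 1 had only high Xist and replicate 2 only high Eif2s3y. Whether replicate 3 shares material with replicates 1 and 2 was not tested, so the arrays of a group may not be independent.

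Of 13175 autosomal genes tested, 4163 were called at an adjusted p below 0.05 (31.6%). HMGN3 WT was higher for 1461 genes (11.1%) and lower for 2702 (20.5%). Most of these differences were small, since 3863 of the called genes differed by less than 2-fold and 300 by 2-fold or more (2.28%). Among the 300, HMGN3 WT was higher for 224 and lower for 76. The 3 arrays of HMGN3 WT did not overlap the 3 of HMGN1 WT in 46.3% of all genes, with 16.8% higher and 29.5% lower. The median difference over all autosomal genes was -0.03, and 35.1% of the calls were higher in HMGN3 WT. That share depended on the scaling, with 51.6% when each array was centred on its median and 42.3% after another quantile normalization. It was 47.0% with male RNA content as a covariate. The 224 large rises, among 13175 genes tested, included 27 of the 78 genes tested in the interferon lists. They also included 8 genes of the chemokine lists, where 24, 9 and 21 were tested. The leukocyte lists, where 31, 6 and 4 were tested, gave 10. Pf4 is counted in both the chemokine and the leukocyte lists. Of 182 genes named by rule, 84 had a second probe set above the filter, in 43 all probe sets were called the same way, and in 0 was a probe set called the opposite way.

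Interferon-stimulated antiviral genes were higher in HMGN3 WT. Of 34 antiviral effectors listed, 31 had a probe set, 29 passed the filter on dim probe sets, and 23 of these rose (beside 11.1% of all genes) while 6 did not pass the test. Their median difference was 0.97, beside -0.03 over all genes. Without the filter 24 of 31 rose, with a median of 0.79, beside 7.99% of all genes. In 24 of the 29 the 3 HMGN3 WT arrays lay above the 3 HMGN1 WT arrays, which was so for 16.8% of all autosomal genes.

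Usp18, a protease that removes ISG15 from proteins and restrains the interferon receptor, belongs to the signalling list and had the largest difference of all autosomal genes called. It stood at 6.75, 6.75 and 6.76 in HMGN3 WT and at 2.36, 2.93 and 2.90 in HMGN1 WT. The groups were far apart, and the difference was 4.02 ± 0.27, or 16.2-fold (adjusted p = 5.5e-08). Rtp4, an interferon-induced chaperone of membrane receptors, stood at 6.76, 6.78 and 6.77 in HMGN3 WT and at 3.33, 3.16 and 3.39 in HMGN1 WT, a difference of 3.48 ± 0.24 (adjusted p = 8.04e-08). Xaf1, an interferon-induced antagonist of the apoptosis inhibitor XIAP, stood at 6.97, 6.99 and 6.74 in HMGN3 WT, against 3.74, 3.94 and 3.93 in HMGN1 WT (difference 3.03 ± 0.22, adjusted p = 1.53e-07). In all of these genes the HMGN3 WT arrays lay close together and above every HMGN1 WT array.

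Ifit1, which binds foreign RNA at its cap, stood at 5.10, 4.88 and 4.88 in HMGN3 WT and at 1.56, 2.52 and 2.26 in HMGN1 WT, a difference of 2.84 ± 0.44 (adjusted p = 0.000224). Bst2, the tether that holds budding virus on the cell surface, stood at 8.26, 8.26 and 8.18 in HMGN3 WT, against 5.47, 5.76 and 5.81 in HMGN1 WT (2.55 ± 0.12, adjusted p = 9.52e-10). The oligoadenylate synthetase Oas1a, which activates RNase L, stood at 6.00, 6.07 and 6.02 in HMGN3 WT and at 4.17, 3.80 and 4.30 in HMGN1 WT (1.94 ± 0.10, adjusted p = 3.81e-09). For each of these 3 genes too the groups did not overlap. Trim30a (2.77), the synthetase-like Oasl2 (2.63) and the secreted glycoprotein gene Lgals3bp (2.22) rose by similar amounts. The mono-ADP-ribosyltransferase genes Parp9 (1.64), Parp14 (1.41) and Parp12 (1.00), Ifit3 (1.38) and Ifitm3 (1.18), whose product blocks viral entry, rose less. Of the classical antiviral genes, Rsad2 rose by 0.65 ± 0.19, Ifit2 by 0.36 ± 0.11 and the RNA editor Adar by 0.54 ± 0.09. The 6 effectors that did not pass the test were Oas2 (0.23), Ifitm2 (0.19), Mx2 (0.13), Samhd1 (0.06), Ifitm1 (-0.22) and Isg20 (-0.24).

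The interferon-induced GTPases, which attack vacuoles holding pathogens, gave 8 rises among the 8 measured of 11 listed, with a median difference of 1.08. Irgm2 stood at 5.09, 4.98 and 4.87 in HMGN3 WT and at 2.81, 3.63 and 3.14 in HMGN1 WT (difference 1.79 ± 0.26, adjusted p = 0.000118). Igtp stood at 5.34, 5.31 and 5.26 in HMGN3 WT, against 3.52, 3.92 and 3.65 in HMGN1 WT (1.61 ± 0.15). The groups lay apart in both genes. Iigp1 rose by 1.68, Gbp2 by 1.09, Gbp3 by 1.07, Gbp7 by 0.83 and Irgm1 by 0.78. Gbp6 was below the filter level of 1.99 in HMGN1 WT and was at least 1.23-fold higher in HMGN3 WT.

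Sensors and transcription factors of the pathway split. Of 29 signalling, sensing and feedback genes listed 27 were tested, of which 11 rose, 2 fell and 14 did not pass the test (median 0.14), beside 11.1% of all genes higher and 20.5% lower. The RNA sensor Ifih1, which encodes MDA5, stood at 6.42, 6.36 and 6.28 in HMGN3 WT and at 3.58, 4.39 and 4.14 in HMGN1 WT (2.32 ± 0.19, adjusted p = 4.21e-07). Irf7, the factor that amplifies interferon production, stood at 5.51, 5.54 and 5.43 in HMGN3 WT and at 3.59, 3.74 and 3.85 in HMGN1 WT (1.77 ± 0.15, adjusted p = 6.33e-07). Irf9 rose by 1.89 ± 0.16, Ddx58, which encodes the sensor RIG-I, by 1.26 ± 0.11, and Stat2 by 0.74 ± 0.14. The groups did not overlap in Ifih1 or Irf7. The receptor subunit gene Ifnar1 fell by 0.28 and Irf3, which starts interferon transcription, fell by 0.21, in 1 of 2 and 1 of 4 probe sets. Ifnar2 (-0.08), Ifngr1 (-0.02), Ifngr2 (-0.14), Jak1 (-0.12), Tyk2 (-0.12), Tbk1 (0.10), Mavs (0.08), Irf1 (-0.02) and the DNA sensor pair Cgas (0.03) and Sting1 (-0.02) did not pass the test.

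**Figure D1:**
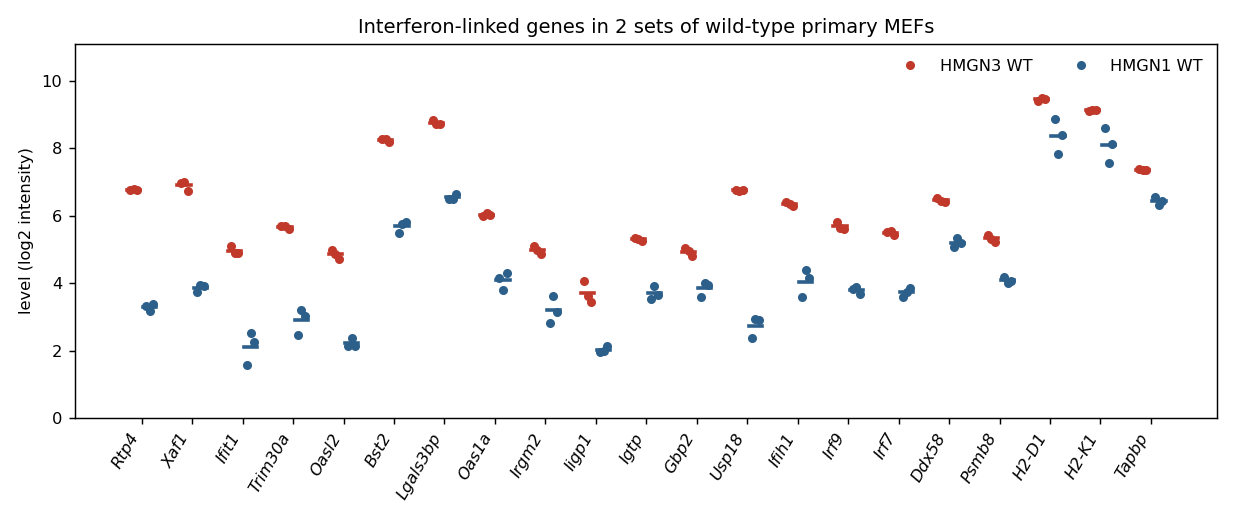
Levels of 21 interferon-linked genes that rose, the largest of the lists of antiviral effectors, GTPases, signalling genes and antigen presentation, from left to right. Each point is 1 array, each bar a mean of 3 arrays, and the vertical axis is log2 intensity. For every gene shown the 3 HMGN3 WT arrays lie above the 3 HMGN1 WT arrays, most widely for Usp18.

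The promoters of the list members tested were read for the core of the interferon-stimulated response element, TTTC, any 2 bases and TTTC again on either strand, in RefSeq windows of 250 bases before to 50 bases after each gene start (build GRCm38.p6). The core was in the window of 3.99% of 27025 genes. It was in 9 of 22 antiviral effectors with a window, in 6 of 6 interferon-induced GTPases, in 5 of 23 signalling genes and in 3 of 12 antigen presentation genes. It was in 2 of 18 chemokine genes, Cxcl10 and Cxcl14, and in 0 of 19 glycolysis genes. A match describes these letters only and is no evidence of binding. The windows below, each of 150 bases and with the core in capitals, belong to genes with a large difference in each list, 5′ to 3′ on the gene's strand. Capitals that read GAAA, any 2 bases and GAAA mark the core on the opposite strand. The windows lie at chr19:34640724-34640873 (plus strand, Ifit1), chr7:104465150-104465299 (minus, Trim30a), chr11:58214843-58214992 (plus, Irgm2), chr2:62646206-62646355 (minus, Ifih1), chr2:122147478-122147627 (plus, B2m) and chr5:92348990-92349139 (minus, Cxcl10).
Ifit1: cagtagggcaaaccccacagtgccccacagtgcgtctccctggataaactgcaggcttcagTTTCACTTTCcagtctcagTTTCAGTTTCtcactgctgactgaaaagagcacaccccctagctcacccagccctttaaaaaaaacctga
Trim30a: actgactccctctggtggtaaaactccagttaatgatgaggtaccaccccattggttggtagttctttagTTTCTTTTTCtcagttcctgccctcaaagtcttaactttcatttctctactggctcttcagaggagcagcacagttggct
Irgm2: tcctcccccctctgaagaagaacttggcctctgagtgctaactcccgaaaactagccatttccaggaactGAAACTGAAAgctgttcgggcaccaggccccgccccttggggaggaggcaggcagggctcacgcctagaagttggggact
Ifih1: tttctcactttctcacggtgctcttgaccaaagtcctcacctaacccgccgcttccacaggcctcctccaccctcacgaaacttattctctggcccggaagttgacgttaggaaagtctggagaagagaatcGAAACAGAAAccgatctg
B2m: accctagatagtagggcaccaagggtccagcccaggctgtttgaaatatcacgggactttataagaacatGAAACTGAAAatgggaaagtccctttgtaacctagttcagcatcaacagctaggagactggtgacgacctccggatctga
Cxcl10: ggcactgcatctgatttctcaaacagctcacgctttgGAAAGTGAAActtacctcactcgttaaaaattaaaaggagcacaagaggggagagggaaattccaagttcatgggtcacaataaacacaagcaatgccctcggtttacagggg
The Ifit1 window holds 2 copies of the core, and each of the other 5 holds 1.

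Antigen presentation by MHC class I, which interferon raises, was also higher. Of 16 genes listed 14 were tested, of which 10 rose (beside 11.1% of all genes) and 4 did not pass the test, with a median of 0.40. The immunoproteasome subunit Psmb8 stood at 5.44, 5.30 and 5.23 in HMGN3 WT and at 4.20, 3.99 and 4.05 in HMGN1 WT (difference 1.24 ± 0.12, adjusted p = 1.96e-06), in 1 of its 2 probe sets. B2m, the light chain of all class I molecules, stood at 11.51, 11.45 and 11.43 in HMGN3 WT and at 10.65, 10.64 and 10.72 in HMGN1 WT (0.80 ± 0.07, adjusted p = 1.63e-06). The heavy chain genes were less even among the HMGN1 WT arrays. H2-K1 stood at 9.11, 9.12 and 9.14 in HMGN3 WT, against 8.59, 7.55 and 8.12 in HMGN1 WT (1.04 ± 0.22), and H2-D1 differed by 1.08 ± 0.22. These heavy chains belong to a family of near-identical genes, so their probe sets may read more than 1 of them. The loading factor Tapbp rose by 0.93 and the peptide transporter Tap1 by 0.72, while Tap2 (0.08) and Psme1 (-0.01) did not pass the test.

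More chemokine genes rose than fell. Of 31 listed, 30 had a probe set and 24 were tested, of which 10 rose, 2 fell and 12 did not pass the test (median 0.23), beside 11.1% of all genes higher and 20.5% lower. Cxcl14, a chemokine of skin and connective tissue, stood at 6.45, 6.49 and 6.23 in HMGN3 WT and at 4.03, 2.57 and 3.24 in HMGN1 WT (difference 3.11 ± 0.28, adjusted p = 1.24e-06). The HMGN1 WT arrays spread widely in this gene, but none reached HMGN3 WT. Ccl5, which attracts T cells and monocytes, stood at 6.46, 6.42 and 6.33 in HMGN3 WT and at 4.22, 4.06 and 3.78 in HMGN1 WT (2.38 ± 0.16, adjusted p = 5.74e-08). Cxcl10, an interferon-induced ligand of CXCR3, stood at 4.79, 4.40 and 4.40 in HMGN3 WT and at 3.00, 3.19 and 3.45 in HMGN1 WT (1.32 ± 0.29, adjusted p = 0.00297).

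Ccl2, a monocyte attractant, stood at 7.38, 7.25 and 7.25 in HMGN3 WT and at 6.65, 6.15 and 6.36 in HMGN1 WT (0.91 ± 0.16, adjusted p = 0.000547). Ccl7 rose by 0.98 ± 0.20, Ccl8 by 1.27 ± 0.21 and Ccl9 by 0.89 ± 0.25, while Ccl6 (0.04) and Ccl4 (0.04) did not pass the test. Cxcl16 rose by 0.77 ± 0.18, and its receptor gene Cxcr6 stood at 3.95, 4.04 and 3.82 in HMGN3 WT, against 2.54, 2.49 and 2.34 in HMGN1 WT (1.48 ± 0.09, adjusted p = 2.75e-08). Ccl11 and Cxcr4 were below the filter level in HMGN1 WT and were at least 1.07-fold and 1.66-fold higher in HMGN3 WT. Cxcr6 and Cxcr4 were the 2 receptor genes called among 9 tested (median 0.04), beside 31.6% of all genes called in either direction and 11.1% called higher. Pf4, a chemokine of platelets that macrophages also make, rose by 1.28 ± 0.46 (adjusted p = 0.0435).

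The chemokines that fell were Cx3cl1, a membrane-bound ligand of monocytes, and Ccl17, a T cell attractant. Cx3cl1 stood at 5.22, 5.11 and 5.05 in HMGN3 WT and at 6.41, 6.04 and 6.29 in HMGN1 WT (-1.12 ± 0.11, adjusted p = 3.98e-06). Ccl17 stood at 3.92, 3.51 and 3.57 in HMGN3 WT, against 4.90, 4.53 and 4.69 in HMGN1 WT (-1.04 ± 0.13). The stromal chemokine Cxcl12 (-0.08) did not pass the test. Nor did the neutrophil attractant Cxcl1 (0.34), although 2 of its 3 probe sets were called. Cxcl9 (-0.03), which interferon gamma induces, did not either.

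Among 21 cytokines and NF-kB targets tested, 7 rose and 1 fell (median 0.07), beside 11.1% of all genes higher and 20.5% lower. Il6 stood at 6.05, 6.10 and 5.98 in HMGN3 WT and at 4.84, 5.00 and 4.89 in HMGN1 WT (1.13 ± 0.19, adjusted p = 0.000449). Csf1, the growth factor on which macrophages depend, stood at 9.97, 9.95 and 9.95 in HMGN3 WT and at 9.31, 9.29 and 9.26 in HMGN1 WT (0.67 ± 0.07, adjusted p = 1.14e-05). Both genes were tightly grouped within each set of arrays. Tnfaip3, which encodes the NF-kB inhibitor A20, fell, with 4.83, 4.87 and 4.86 in HMGN3 WT and 5.53, 5.90 and 5.78 in HMGN1 WT (-0.89 ± 0.16), and its second probe set was not called. The NF-kB target Nfkbia (-0.11) and the subunit genes Rela (0.06), Relb (0.18) and Nfkb2 (0.03) did not pass the test.

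The 31 macrophage and leukocyte markers tested, of 34 listed, had a median difference of 1.02. The call reached 10 of them, and in 26 of the 31 the HMGN3 WT arrays lay above all HMGN1 WT arrays (beside 16.8% of all genes). The fit takes its spread from all 6 groups of primary MEFs, and these markers varied widely within the HMGN5 groups. With only the 6 compared arrays in the fit, 26 of 31 rose, beside 10.9% of all genes. Cd68, a lysosomal protein of macrophages, stood at 5.71, 5.62 and 5.58 in HMGN3 WT and at 3.82, 3.83 and 4.0 in HMGN1 WT (difference 1.75 ± 0.43, adjusted p = 0.00585). Adgre1, which encodes the macrophage antigen F4/80, stood at 6.03, 6.03 and 6.01 in HMGN3 WT and at 4.56, 4.50 and 4.51 in HMGN1 WT (1.50 ± 0.35, adjusted p = 0.00487). Ptprc, which encodes the pan-leukocyte antigen CD45, stood at 5.94, 5.85 and 5.70 in HMGN3 WT, against 4.36, 4.44 and 4.42 in HMGN1 WT (1.43 ± 0.46, adjusted p = 0.0282).

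The groups lay apart in each of these markers. The calls were close to the threshold: over the leukocyte lists 12 genes were called, and 5 to 7 were with any 1 array left out other than HMGN3 WT replicate 1, without which 9 were. Ptprc, C1qc, Tyrobp, Mrc1 and Pf4 lost the call with any 1 of the 6 arrays left out. Lysozyme (Lyz2, 1.28 ± 0.37), the complement subunit C1qc (1.35 ± 0.47), the adaptor Tyrobp (1.22 ± 0.43), Trem2 (1.12 ± 0.22) and the mannose receptor Mrc1 (0.99 ± 0.34) also rose. Csf1r, the receptor of Csf1, stood at 7.42, 7.37 and 7.36 in HMGN3 WT and at 6.27, 6.37 and 6.33 in HMGN1 WT, and missed the threshold in the fit over all groups (1.06 ± 0.42, adjusted p = 0.0682). C1qa (1.27), Itgb2 (1.16), Laptm5 (1.13) and Mpeg1 (1.08) missed it likewise. The myeloid regulator Spi1 (0.50), Cd14 (0.06), Msr1 (0.14) and Clec7a (-0.19) did not pass the test. The summed linear intensity of the 31 genes was 3065 to 3294 in HMGN3 WT and 1425 to 1519 in HMGN1 WT. In bulk RNA, more macrophages and more of these RNAs per cell cannot be told apart.

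Markers of other blood cells gave few values above the filter. Of 19 lymphocyte, granulocyte and mast cell markers listed, 6 passed the filter, and the summed intensity of these 6 was 33.1 to 41.7 in HMGN3 WT and 33.7 to 35.4 in HMGN1 WT. The T cell markers Cd3e (0.03), Cd4 (0.13) and Cd8a (0.18) and the granulocyte enzyme Mpo (0.13) did not pass the test. The mast cell protease Cpa3 was called and was at least 1.08-fold higher, with HMGN1 WT below the filter level. The platelet glycoprotein Gp1bb fell by 0.40, and Gp9 (0.00) and Itga2b (-0.02) did not pass the test.

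**Figure D2:**
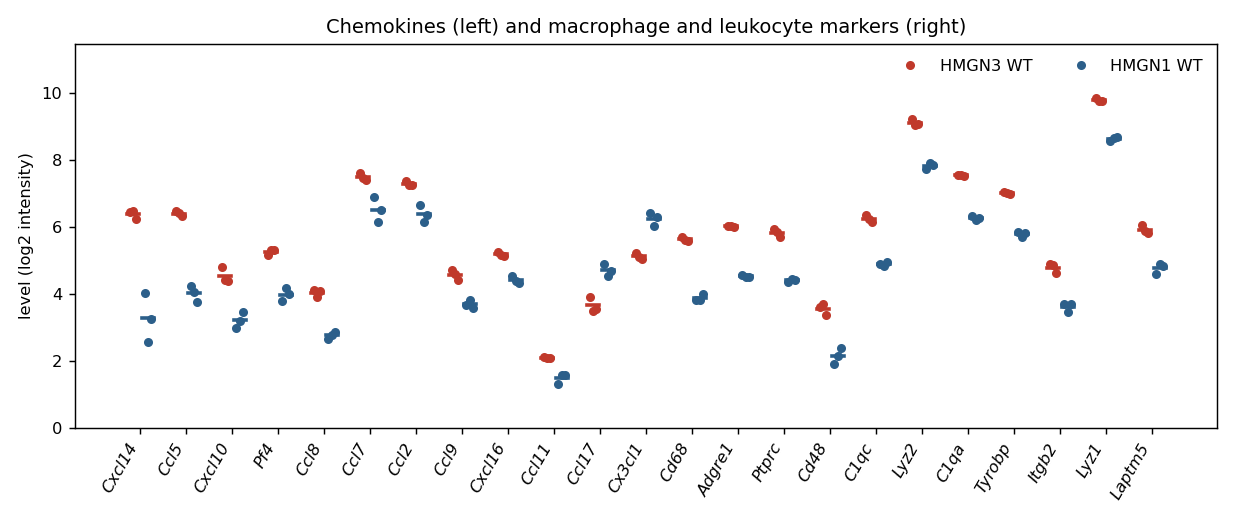
Levels of the 12 chemokine genes called and of 11 macrophage and leukocyte markers with the largest differences, in log2 intensity. Each point is 1 array and each bar the mean of 3. Cx3cl1 and Ccl17 are lower in HMGN3 WT, and all other genes shown are higher, with no overlap between the groups.

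The interferon and macrophage levels did not rank the 18 arrays in the same order. The mean level of the 29 antiviral effectors was 5.72 to 5.74 in HMGN3 WT and 4.45 to 4.59 in HMGN1 WT. The mean of the 31 macrophage and leukocyte markers was 5.47 to 5.59 in HMGN3 WT and 4.60 to 4.68 in HMGN1 WT. The array labelled HMGN5 knock out replicate 2 had the lowest macrophage mean of all (3.89), below every HMGN1 WT array, and its antiviral mean was 5.88, above every HMGN3 WT array. HMGN5 WT replicate 2 had 4.61 for the macrophage markers and 5.96 for the antiviral effectors. The part of macrophages in the interferon difference was not tested.

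**Figure D3:**
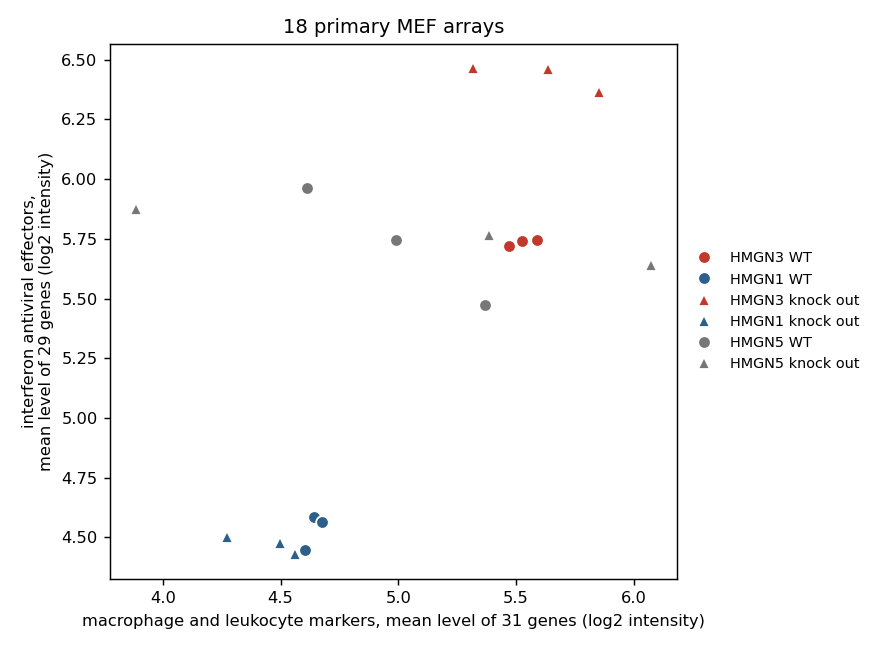
Mean log2 level of the antiviral effectors (vertical axis) against that of the macrophage and leukocyte markers (horizontal axis) in the 18 primary MEF arrays, 1 symbol per array, circles for WT and triangles for knock out. The HMGN1 WT and HMGN1 knock out arrays lie at 4.43 to 4.59 on the vertical axis, and the 4 other groups lie at 5.47 or above at macrophage means between 3.89 and 6.07.

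Several glycolysis genes were lower in HMGN3 WT, by less than 2-fold. Of 24 glycolysis genes listed 20 autosomal ones were tested, of which 7 fell, 2 rose and 11 did not pass the test (median -0.13), beside 20.5% of all genes lower and 11.1% higher. Hexokinase 2 (Hk2), which commits glucose to the pathway, stood at 6.91, 7.01 and 6.93 in HMGN3 WT and at 7.75, 7.82 and 7.81 in HMGN1 WT (difference -0.85 ± 0.10, adjusted p = 1.85e-05). The phosphofructokinase Pfkp stood at 5.85, 5.80 and 5.74 in HMGN3 WT and at 6.48, 6.67 and 6.67 in HMGN1 WT (-0.81 ± 0.08, adjusted p = 3.11e-06). The groups were well apart in both. Pfkm (-0.39), the lactate exporter Slc16a3 (-0.38), the glucose transporter Slc2a1 (-0.25), Tpi1 (-0.25) and Aldoa (-0.20) fell less, and 1 of the 5 Aldoa probe sets was called. The glucose transporter Slc2a3 rose by 0.68 and the lactate dehydrogenase subunit Ldhb by 0.31. Ldha (-0.05), Pkm (0.14), Pgam1 (-0.06) and Pdk1 (-0.31) did not pass the test.

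Most hypoxia response genes tested were lower too. Of 22 genes listed 19 were tested, of which 12 fell (beside 20.5% of all genes), 1 rose and 6 did not pass the test (median -0.33). The prolyl hydroxylase gene Egln3, a target of the hypoxia-inducible factors that feeds back on them, stood at 3.14, 3.01 and 3.27 in HMGN3 WT and at 4.19, 5.01 and 4.65 in HMGN1 WT (-1.48 ± 0.32, adjusted p = 0.00288). The mitophagy gene Bnip3 stood at 6.11, 6.06 and 5.85 in HMGN3 WT and at 6.57, 6.83 and 6.72 in HMGN1 WT (-0.70 ± 0.22, adjusted p = 0.0235). The groups did not overlap in these genes. Mxi1 fell by 0.66, the lysyl hydroxylase Plod2 by 0.64, Ddit4, a brake on mTOR, by 0.63, Bhlhe40 by 0.54, Ndrg1 by 0.54 and P4ha2 by 0.46. Kdm3a, P4ha1, Higd1a and Egln1 fell by 0.15 to 0.37. The exception was Epas1, which encodes HIF2 alpha, with 5.61, 5.55 and 5.52 in HMGN3 WT and 5.02, 4.25 and 4.52 in HMGN1 WT (0.96 ± 0.19). Hif1a (-0.20) and the angiogenic factor Vegfa (-0.23) did not pass the test. Of 18 genes of mitochondrial oxidative metabolism, 8 fell and 1 rose, beside 20.5% of all genes lower and 11.1% higher. Their median was -0.11, beside -0.03 over all genes, and the largest fall was that of Ndufs1 (-0.29). With only the 6 compared arrays in the fit, 5 of them fell, beside 18% of all genes. Over the lists of glycolysis, hypoxia response and oxidative metabolism 27 genes were called lower. The count was 18 when each array was centred on its median, and 7 with male RNA content as a covariate.

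**Figure D4:**
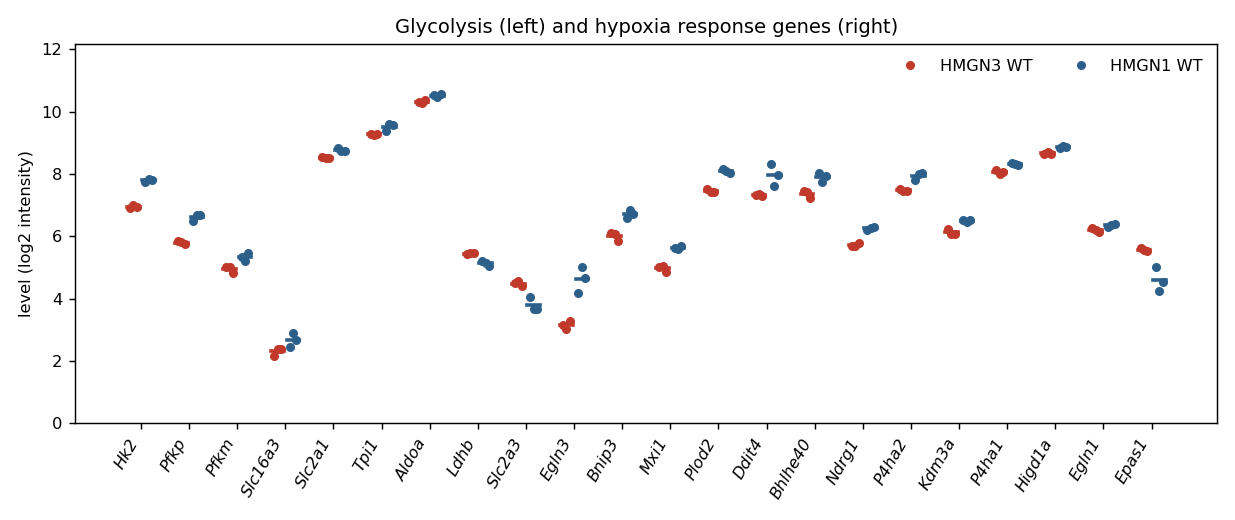
Levels of the 9 glycolysis genes and 13 hypoxia response genes called, in log2 intensity, with 1 point per array and a bar at each mean of 3. The HMGN3 WT arrays lie below HMGN1 WT in 19 of the 22 genes, and above it in Slc2a3, Ldhb and Epas1.

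The hypoxia response element core, ACGTG on either strand, is short and was in the window of 21.8% of 27025 genes. It was in 12 of 14 hypoxia response genes with a window and in 12 of 19 glycolysis genes, and in 3 of 22 antiviral effectors. The windows of the 3 hypoxia genes with the largest falls and a match, and of Hk2, are shown with the core in capitals, of 150 bases each. They lie at chr12:54203975-54204124 (minus strand, Egln3), chr7:138909537-138909686 (minus, Bnip3), chr19:53329274-53329423 (plus, Mxi1) and chr6:82774531-82774680 (minus, Hk2), build GRCm38.p6, from RefSeq.
Egln3: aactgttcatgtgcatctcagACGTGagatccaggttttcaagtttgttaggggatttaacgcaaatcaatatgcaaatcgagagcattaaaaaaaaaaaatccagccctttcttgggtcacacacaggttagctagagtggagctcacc
Bnip3: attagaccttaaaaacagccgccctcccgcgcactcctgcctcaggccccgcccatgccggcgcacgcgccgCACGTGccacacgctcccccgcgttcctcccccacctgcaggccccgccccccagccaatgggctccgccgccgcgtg
Mxi1: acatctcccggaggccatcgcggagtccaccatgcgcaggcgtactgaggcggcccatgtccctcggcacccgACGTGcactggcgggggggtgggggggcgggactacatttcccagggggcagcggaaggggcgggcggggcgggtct
Hk2: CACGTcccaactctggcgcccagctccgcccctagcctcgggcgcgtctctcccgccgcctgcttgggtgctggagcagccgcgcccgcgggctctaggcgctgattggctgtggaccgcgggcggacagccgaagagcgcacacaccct
In Bnip3 the 2 matches, 1 on each strand, overlap in a palindrome, and in Hk2 the core lies on the opposite strand (CACGT).

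Outside these lists the largest rise was that of Cd200. Cd200, an immunoglobulin-family ligand that restrains myeloid cells, stood at 6.34, 6.17 and 6.03 in HMGN3 WT and at 2.50, 1.92 and 2.15 in HMGN1 WT (difference 3.99 ± 0.16, 15.9-fold). The R-spondin receptor Lgr5 stood at 5.70, 5.51 and 5.41 in HMGN3 WT and at 2.39, 1.63 and 1.96 in HMGN1 WT (3.55 ± 0.26), and its second probe set was not called. Decorin (Dcn), a proteoglycan of collagen fibrils and a fibroblast marker, stood at 8.66, 8.57 and 8.50 in HMGN3 WT, against 5.94, 5.16 and 5.60 in HMGN1 WT (3.01 ± 0.16). All of these were clear of overlap. The interferon-induced Ifi27l2a (3.44), the apolipoprotein Apod (2.82), the matrix proteins Prelp (2.71) and lumican (Lum, 2.03), Clca3a1 (2.65) and the integrin chain Itga8 (2.60) followed. Of 30 extracellular matrix genes, 7 rose and 2 fell (median 0.06), beside 11.1% of all genes higher and 20.5% lower, and Col6a1 (0.93) and Col6a2 (0.87) were among the rises.

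The largest fall was that of Gzmd. Gzmd, a granzyme, stood at 3.80, 3.66 and 3.53 in HMGN3 WT and at 6.41, 7.07 and 6.88 in HMGN1 WT (-3.12 ± 0.28, adjusted p = 1.42e-06). The cadherin Cdh10 stood at 4.76, 4.75 and 4.68 in HMGN3 WT and at 7.06, 7.36 and 7.24 in HMGN1 WT (-2.49 ± 0.14). Nestin (Nes), an intermediate filament of neural and mesenchymal progenitors, stood at 5.99, 5.96 and 5.90 in HMGN3 WT, against 7.87, 7.76 and 7.83 in HMGN1 WT (-1.88 ± 0.08). No array of either group came close to the other group in these genes. Zfp979 (-2.56), the lymphatic factor Ccbe1 (-2.27), Stmn4 (-2.22), AA467197 (-2.21), the macrophage elastase Mmp12 (-2.12), Dubr (-2.02), Ctnnd2 (-1.99), the natriuretic peptide receptor Npr3 (-1.87), Wdfy1 (-1.85) and the retinoid-binding Crabp2 (-1.79) followed. The esterase gene Ces1g was below the filter level in HMGN3 WT and was at least 2.11-fold lower there.

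Positional identity genes differed singly. Of 24 Hox genes, 4 rose and 5 fell (median -0.03), and of 27 mesenchymal patterning factors 4 rose and 5 fell (median -0.04), both close to the shares over all genes. The retinoic acid receptor Rarb stood at 2.34, 2.50 and 2.17 in HMGN3 WT and at 4.28, 4.35 and 4.21 in HMGN1 WT (-1.94 ± 0.12, adjusted p = 2.3e-08). Hoxa5 stood at 4.99, 4.53 and 4.58 in HMGN3 WT and at 5.93, 6.02 and 6.07 in HMGN1 WT (-1.31 ± 0.17), with a second probe set not called. Both genes were lower in every HMGN3 WT array. Zic1 (-1.06), Foxc2 (-0.92), Hoxc5 (-0.65) and Hoxc4 (-0.53) also fell, and Prrx2 (0.87) and Hoxa10 (0.55) rose. Of 23 mitosis genes limma called 0, with 2 lower at an unadjusted p below 0.05 and a median of -0.06, and of 21 DNA replication genes 5 fell (median -0.14), a share near the 20.5% of all genes lower.

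The HMGN3 and HMGN1 knock out arrays carry the same gene names as the WT groups and share no array with the WT comparison. The knock out groups also differ from each other by the gene removed and in sex-linked RNA. Eif2s3y stood at 6.21, 6.27 and 6.22 in the HMGN3 knock out and at 5.85, 1.28 and 5.23 in the HMGN1 knock out. Xist stood at 2.66, 2.72 and 2.40 in the HMGN3 knock out and at 3.14, 8.61 and 7.40 in the HMGN1 knock out. The part of sex-linked RNA in what both comparisons share was not tested. Hmgn3 had a mean of 6.25 in the HMGN3 knock out and 7.44 in the HMGN1 knock out, and Hmgn1 had a mean of 11.19 in the HMGN3 knock out and 10.59 in the HMGN1 knock out. Between them 3963 autosomal genes were called (30.1%), and 3757 without HMGN1 knock out replicate 1 or 3218 without its replicate 3, the arrays with Y-linked RNA in that group. Of the WT calls, 2554 were called in the same direction, which was 61.35% of the WT calls and 64.4% of the knock out calls, and 13 were called in the opposite one. Of the 300 genes that differed by 2-fold or more between the WT groups, 282 were called in the same direction between the knock outs and 0 in the opposite one. Both comparisons came from the same fit with the same SE for each gene, so their calls are not independent.

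Interferon genes differed between the knock outs too. There 25 of the 29 antiviral effectors were higher (beside 11.7% of all genes), with a median of 1.59, and 8 of 8 GTPases, with a median of 2.49. Usp18 stood at 8.19, 8.35 and 8.32 in the HMGN3 knock out and at 2.20, 2.35 and 2.09 in the HMGN1 knock out, a difference of 6.08 (adjusted p = 5.01e-10), against 4.02 in WT. Of the 2 signalling genes that fell in WT, Irf3 was lower there too (-0.16), and Ifnar1 was called in the opposite direction (0.22, adjusted p = 0.0498). In a direct test of WT against knock out differences, 69 autosomal genes were called (0.524%). Among them were 22 of the 78 genes of the 4 interferon lists, each with the smaller difference in WT. The count of 69 fell to 26 to 44 without HMGN1 WT replicate 3, HMGN3 WT replicate 2 or 3, or HMGN3 knock out replicate 2 or 3. Cxcl10 differed by 3.21 between the knock outs and by 1.32 between the WT groups, and was not among the 69.

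The 31 macrophage and leukocyte markers had a median of 1.41 between the knock outs, with 19 higher (beside 11.7% of all genes). In limma's test of WT against knock out differences 0 of the 31 were called, and 0 had an unadjusted p below 0.05. The summed intensity was 2772 to 4305 in the HMGN3 knock out and 1048 to 1408 in the HMGN1 knock out. All 7 glycolysis genes that fell in WT, and 10 of the 12 hypoxia genes, were also lower in the HMGN3 knock out than in the HMGN1 knock out, where 18.4% of all genes were lower. Of the 8 genes of mitochondrial oxidative metabolism that fell in WT, only 1 was lower between the knock outs too. Egln3 differed by -2.39 and Hk2 by -0.79 there. The HMGN1 knock out arrays had mean hypoxia levels of 6.54, 7.04 and 6.86, all above the HMGN3 knock out range of 6.34 to 6.43. Of the mitosis genes 14 of 23 were higher in the HMGN3 knock out than in the HMGN1 knock out (median 0.45), beside 11.7% of all genes. In the test of the WT against knock out differences 0 were called, with 19 lower in WT at an unadjusted p below 0.05. Mean mitosis levels were 5.60 to 5.92 in the HMGN1 knock out and 6.15 to 6.43 in HMGN1 WT. They were 6.17 to 6.30 in the HMGN3 knock out and 6.13 to 6.27 in HMGN3 WT. Of the DNA replication genes 13 of 21 were higher in the HMGN3 knock out than in the HMGN1 knock out (median 0.28), beside 11.7% of all genes. The test of the WT against knock out differences called 2 of them, the helicase subunit genes Mcm6 (-0.47) and Mcm7 (-0.52), which are named because of these values, and Mcm7 was among the genes called in opposite directions (-0.26 in WT and 0.26 between the knock outs).

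**Figure D5:**
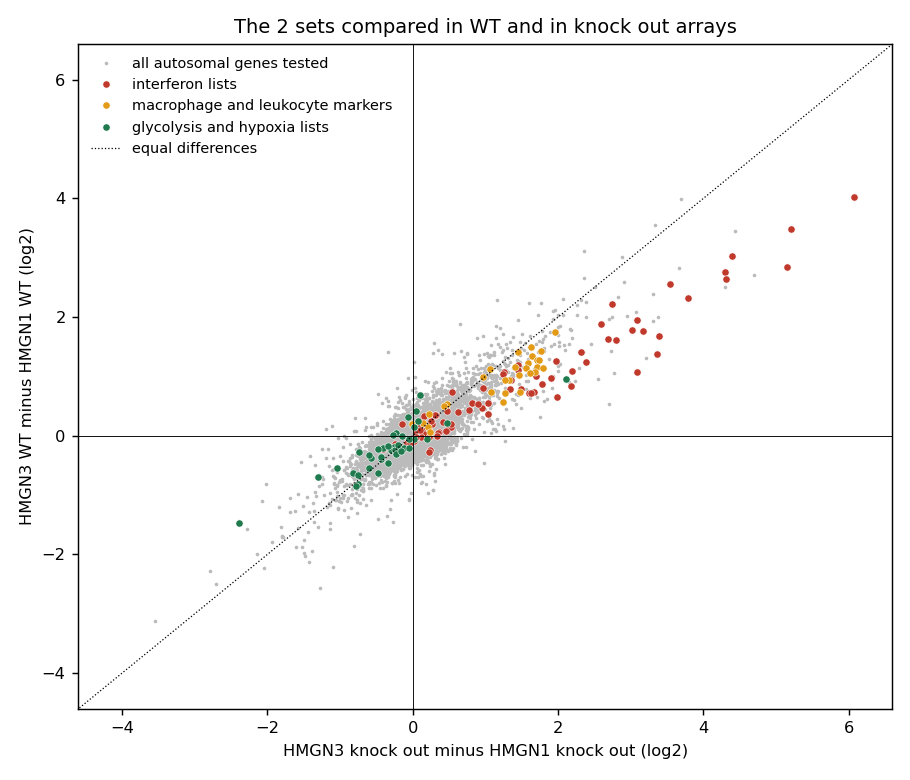
Difference between HMGN3 WT and HMGN1 WT (vertical axis) against the difference between the HMGN3 and HMGN1 knock outs (horizontal axis), both in log2, for each autosomal gene tested. Interferon genes (red) lie mostly below the dotted line of equal differences on the right, with Usp18 farthest out at 6.08 on the horizontal and 4.02 on the vertical axis, macrophage markers (orange) lie near the line between 0 and 2, and glycolysis and hypoxia genes (green) lie mostly at or below 0.

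HMGN5 WT shares the HMGN1 WT arrays as its comparison group here, so its values are only set beside those of HMGN3 WT. Between HMGN5 WT and HMGN1 WT 1543 autosomal genes were called (11.7%), and 877 to 961 without HMGN1 WT replicate 3 or HMGN5 WT replicate 2 or 3. Usp18 stood at 6.17, 7.60 and 6.99 in HMGN5 WT and Rtp4 at 6.58, 7.61 and 7.14, near the HMGN3 WT levels but with more spread. Of the antiviral effectors 18 of 29 were higher than in HMGN1 WT (beside 4.67% of all genes), with a median of 1.08. Of the macrophage markers limma called 0 of 31, with 2 higher at an unadjusted p below 0.05 and a median of 0.42. Hk2 stood at 7.70, 7.65 and 7.58 in HMGN5 WT, beside 6.91, 7.01 and 6.93 in HMGN3 WT. HMGN5 WT carried Y-linked RNA in all 3 arrays, with Eif2s3y between 6.40 and 6.59.

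Sex-linked RNA could be set apart from the WT groups only through the other primary MEF arrays. The array labelled HMGN1 knock out replicate 1 had Eif2s3y at 5.85 and Xist at 3.14. Its antiviral effectors had a mean of 4.50, within the HMGN1 WT range, and its macrophage markers a mean of 4.27, below that range. This array also belongs to the HMGN1 set and to a knock out. Its hypoxia genes had a mean of 6.54, between HMGN3 WT (6.36 to 6.42) and HMGN1 WT (6.67 to 6.71). The HMGN5 knock out arrays also split by sex-linked RNA. Replicate 1 there (Eif2s3y 1.54, Xist 8.72) had the highest macrophage mean of the 18 arrays (6.07) and an antiviral mean of 5.64. Replicate 2 (Eif2s3y 6.50, Xist 2.60) had the lowest macrophage mean (3.89) and an antiviral mean of 5.88. Their hypoxia means were 6.62 and 6.57. Both arrays also belong to a knock out. Male RNA content was taken from 3 Y-linked genes, on a scale of 0 to 1. It varied widely only within the HMGN1 knock out (0.0006 to 0.71) and HMGN5 knock out (0.005 to 0.96) groups. An adjustment for it therefore rests mostly on those arrays and is carried over to the WT groups. With this content as a covariate, 2238 autosomal genes were called in place of 4163. The interferon lists then had 33 genes higher in place of 52, and over the leukocyte lists 28 genes were higher in place of 12. Usp18 then differed by 3.55, Ccl5 by 2.73 and Hk2 by -0.57, all called, while Ifit1 (1.76, adjusted p = 0.0725), Cxcl10 (1.19) and Egln3 (-0.46) were not.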

How the data were processed

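RNA from primary MEFs was hybridised to 1-colour Affymetrix arrays, 3 per group. The deposited values are linear intensities per probe set, made by the authors with RMA, per the submitters' processing notes (version not given in the sources used here). Their log2 was taken for each test, from the deposited intensities. The members and gene lists were chosen with earlier results of these data known.

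Of 45101 probe sets, 34945 carried a single gene symbol in the platform annotation, 932 several and 9160 none. Dim probe sets, with no group mean above the 40th percentile over all group means (log2 1.99), were left out. Each gene was read from its brightest probe set, giving 13674 genes, 13175 of them autosomal. A mean per group was fitted over the 18 primary MEF arrays with limma 3.58.1 (R 4.3.3, data.table package 1.17.8). The moderated test was two-sided, with Benjamini-Hochberg adjustment over all 13674 genes and calls at an adjusted p below 0.05. Where a group mean lay below the filter level, the fold is a bound against that level. Summaries and figures were made with python 3.11.15, pandas 2.3.3 and matplotlib 3.10.9. The genes named are the 15 largest rises and 15 largest falls whose arrays do not overlap, called members of the interferon, chemokine, leukocyte and glycolysis lists, and up to 4 called members of each other list. Members that missed the call were named as examples after their values were seen. The motif ACGTG was also chosen after the data were seen. The fit was tested on simulated data. Alternatives were other filters, probe set rules, scalings, covariates and leaving out each array.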

Additional observations from a re-analysis of the deposited data

Results flagged for a closer look

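The difference between HMGN3 and HMGN1 arrays was tested for a difference between WT and knock out, as the WT difference minus the knock out difference, and 28 of the genes reported passed limma's test. Negative values mean a smaller difference in WT. The targeted genes were among them, Hmgn3 with 1.31 and Hmgn1 with -0.68. Of the antiviral effectors, Rtp4 differed by -1.73, Oasl2 by -1.67, Rsad2 by -1.33, Oas1a by -1.14, Parp9 by -1.05, Bst2 by -0.99, Ifi35 by -0.93, Zbp1 by -0.87, Parp12 by -0.69, Trim25 by -0.55 and Lgals3bp by -0.52. The interferon-induced Ifi27l2a, in none of the lists, differed by -0.99. Of the GTPases, Gbp3 differed by -2.02, Gbp7 by -1.35, Igtp by -1.18 and Irgm1 by -0.71. Of the signalling genes, Usp18 differed by -2.05, Ifih1 by -1.47, Irf7 by -1.40, Stat2 by -0.93 and Ddx58 by -0.72. Of the antigen presentation genes, Psmb8 differed by -1.13 and Tap1 by -0.91. In each of these interferon genes HMGN3 was higher than HMGN1 in both WT and knock out arrays. The helicase subunit genes Mcm6 and Mcm7, named because of these values, differed by -0.47 and -0.52. Cdkn2a, which encodes cell cycle inhibitors linked to senescence, differed by 0.73, with HMGN3 WT higher than HMGN1 WT by 0.48 and a difference of -0.25 between the knock outs.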

How the results depend on the processing

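The counts of autosomal genes called stayed within 1.5 times of 4163 (WT) under every alternative but 1. With male RNA content as a covariate, 2238 genes were called between the WT groups, 541 between HMGN5 WT and HMGN1 WT, and 271 for the WT against knock out difference. Interferon genes called then numbered 33, leukocyte genes 28 and glycolysis, hypoxia and oxidative genes 7, and 72 of 182 named genes lost the call. Mmp12 turned to 0.30 (adjusted p = 0.746). This covariate varied widely only within the HMGN1 and HMGN5 knock out groups, so these counts rest mostly on those arrays. With only the 6 arrays compared, 27 leukocyte genes were called. The cause was not tested. Leaving out each array in turn gave 2942 to 4245 calls between the WT groups, 3023 to 3757 between the knock outs, 877 to 1450 for HMGN5 WT, and 26 to 73 for the WT against knock out difference. It gave 48 to 52 interferon, 16 to 20 chemokine, 5 to 9 leukocyte and 20 to 24 glycolysis genes, and took the call from 18 to 27 named genes, Bnip3, Rsad2, Ifit2, Ifnar1 and Hoxa10 among them. Other scalings, filters and probe set rules took it from 0 to 13 named genes and reversed 0. Centring the arrays moved the median difference to 0.03 and quantile normalization to -0.02. With the replicate block 3975 genes were called between the WT groups, 3776 between the knock outs and 72 for their difference. Same-numbered WT arrays deviated with r of -0.03, 0.04 and -0.21, and knock out arrays with 0.08, 0.11 and 0.14. So few values cannot settle whether the numbers pair the arrays, and the main fit left them unpaired. Genes near background have differences that are bounds, and 3 arrays per group of unknown independence limit every p-value.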

Other observations

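Genes of the p53 response and senescence moved both ways, with 4 of 15 higher and 7 lower in HMGN3 WT, beside 11.1% of all genes higher and 20.5% lower. The apoptosis gene Pmaip1 fell by 0.95 and the cell cycle inhibitor Cdkn2b by 0.70, and all 7 genes that fell were also lower in the HMGN3 knock out than in the HMGN1 knock out. Contractile genes gave 7 rises and 1 fall among 19 tested, beside the same shares of all genes, with the smooth muscle myosin Myh11 higher by 1.16. Among the fibroblast markers that rose were the podoplanin gene Pdpn (1.37) and S100a4 (0.98).

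Markers of other cell types gave calls in both directions, beside 11.1% of all genes higher and 20.5% lower. These lists are short, and several counts are near those shares. Of 9 epithelial markers 3 rose and 1 fell, with the keratin gene Krt18 higher by 0.97 and Krt19 lower (-0.65). Of 6 endothelial markers 2 rose and 2 fell, with the receptor gene Flt1 higher by 0.65 and the sialomucin gene Emcn lower (-0.83). Of 6 adipocyte markers 2 rose, and of 6 cartilage and bone markers 1 rose and 1 fell. The lipase gene Lpl was higher by 0.88, the fatty acid receptor gene Cd36 was at least 2.62-fold higher, and the mineralised tissue gene Dmp1 was higher by 1.56. The cartilage proteoglycan gene Acan fell by 1.06. Of 4 hepatocyte and germ cell markers above the filter, none differed by more than 0.13.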
